A study of Mus musculus with 4 samples.

Results

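The Zbtb genes encode transcription factors of the BTB zinc finger family, and they were taken from the expression table as every protein-coding gene whose symbol begins with Zbtb. This gave 41 genes among 21963 protein-coding genes and 53379 genes in all. Proteins of this family pair with one another through an N-terminal BTB domain, which also binds co-repressor complexes, and contact DNA through zinc fingers near the C-terminus. Several members are known from immune cells. Zbtb16 (PLZF) acts in natural killer T cells and innate lymphoid precursors, and Zbtb7b (ThPOK) in CD4+ T cells. Zbtb46 is expressed in classical dendritic cells and in CCR6+ group 3 innate lymphoid cells (ILC3s). Zbtb8os carries the prefix because it lies opposite Zbtb8 on the DNA. It encodes the tRNA ligase cofactor archease, has no zinc finger, and is described apart.

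RNA-seq compared small-intestinal ILC3s with and without Brg1, the ATPase of the BAF chromatin remodeling complex, which is encoded by Smarca4. Both kinds of cell developed in mixed bone marrow chimeras, in which irradiated Rag2-/-Il2rg-/- mice received marrow from both donor genotypes together, in equal cell numbers. The Brg1-sufficient donor was Thy1.2 Rag1-/-Smarca4f/f, and the Brg1-deficient donor was Thy1.1Thy1.2 Rag1-/-Smarca4f/f with a cre that deletes the floxed gene, so that all cells lacked Rag1 and carried the floxed allele. Cells were sorted 6 to 7 weeks later as Thy1.2high CD45low and separated by Thy1.1, with 2 libraries per genotype. The Thy1.1 allele came with the Brg1-deficient genotype, and an effect of this congenic difference cannot be told apart from that of Brg1. The age of the mice is not given in the sources used here.

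Values were FPKM, fragment counts scaled to transcript length and to the fragments mapped in the library. Smarca4 stood at 17.07 and 16.73 FPKM in controls against 9.98 and 9.03 FPKM without Brg1, 56.2% of the control mean (log2 fold change -0.77, SE 0.164, limma adjusted p = 0.153). Without values per exon, RNA from the deleted allele counts toward these levels as well. The 10 ILC3 genes checked all passed the filter on low values, and 1 of them was higher at an unadjusted p under 0.05. Marker genes of other cells differed between libraries. Summed ILC2 marker levels were 377 and 206 FPKM in Brg1-sufficient and 95.3 and 121 FPKM in Brg1-deficient libraries. Gata3 was the largest part of each sum, at 183.23 and 110 against 74.52 and 105.2 FPKM. Of 8 tested ILC2 genes, 6 were lower and 0 higher at an unadjusted p under 0.05, with a median log2 fold change of -2.86. Over all tested genes, 6.47% were lower and 6.12% higher at this limit. Ccr8 was at 51.74 and 8.41 against 0.23 and 0.24 FPKM, and Areg at 26.69 and 58.72 against 16.44 and 11.29 FPKM. Summed T cell marker levels were 91.1 and 26.8 against 9.4 and 25.4 FPKM. B cell markers summed to 9.7 and 10.7 against 2.22 and 1.68 FPKM, and epithelial markers to at most 4.13 FPKM in any library. By the paper's account, Rag1-/- mice lack T and B cells, and the recipients are deficient in adaptive immune cells. Which cells gave the T and B cell marker RNA was not tested. In the list for NKp46+ ILC3s, ILC1s and NK cells, 4 of 8 tested genes were lower and 2 were higher at an unadjusted p under 0.05, with a median log2 fold change of -1.33. Ncr1, which encodes NKp46, fell to 17% of the control mean (adjusted p = 0.033) and Ifng to 11.1% (adjusted p = 0.0386). The summed level of this list, 307 and 471 against 655 and 466 FPKM, did not show these falls. The 2 higher genes were Gzma and Klrk1. Gzma was at 50.77 and 102.83 against 397.13 and 217.71 FPKM, and Klrk1 at 104.52 and 112.64 against 165.32 and 189.76 FPKM. The part of these cells in the Zbtb values was not tested, and in bulk RNA fewer cells of a type cannot be told apart from less RNA per cell.

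Of the 41 Zbtb genes, 34 (82.9%) had a mean above 1 FPKM in either group and were tested, against 50.4% of all protein-coding genes. They were expressed at modest levels. The median of their means over the 4 libraries was 5.17 FPKM, compared with 11.8 FPKM for tested protein-coding genes, and 24 of the 34 had a mean below 10 FPKM. Zbtb20, Zbtb38, Zbtb8os, Zbtb21, Zbtb11 and Zbtb46, in this order, were the 6 genes with a mean above 20 FPKM. The other 7 genes were at or near the floor: Zbtb39, Zbtb34, Zbtb3, Zbtb12, Zbtb7c, Zbtb32 and Zbtb8b reached at most 0.76 FPKM in any library and were not tested. Zbtb32, a repressor known from activated lymphocytes and natural killer cells, was at 0.21 and 0.26 FPKM in Brg1-sufficient libraries versus 0 and 0.13 FPKM in Brg1-deficient ones. Zbtb8a, Zbtb26 and Zbtb18 passed the filter through 1 group, so their differences are partly set by it.

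**Figure D1:**
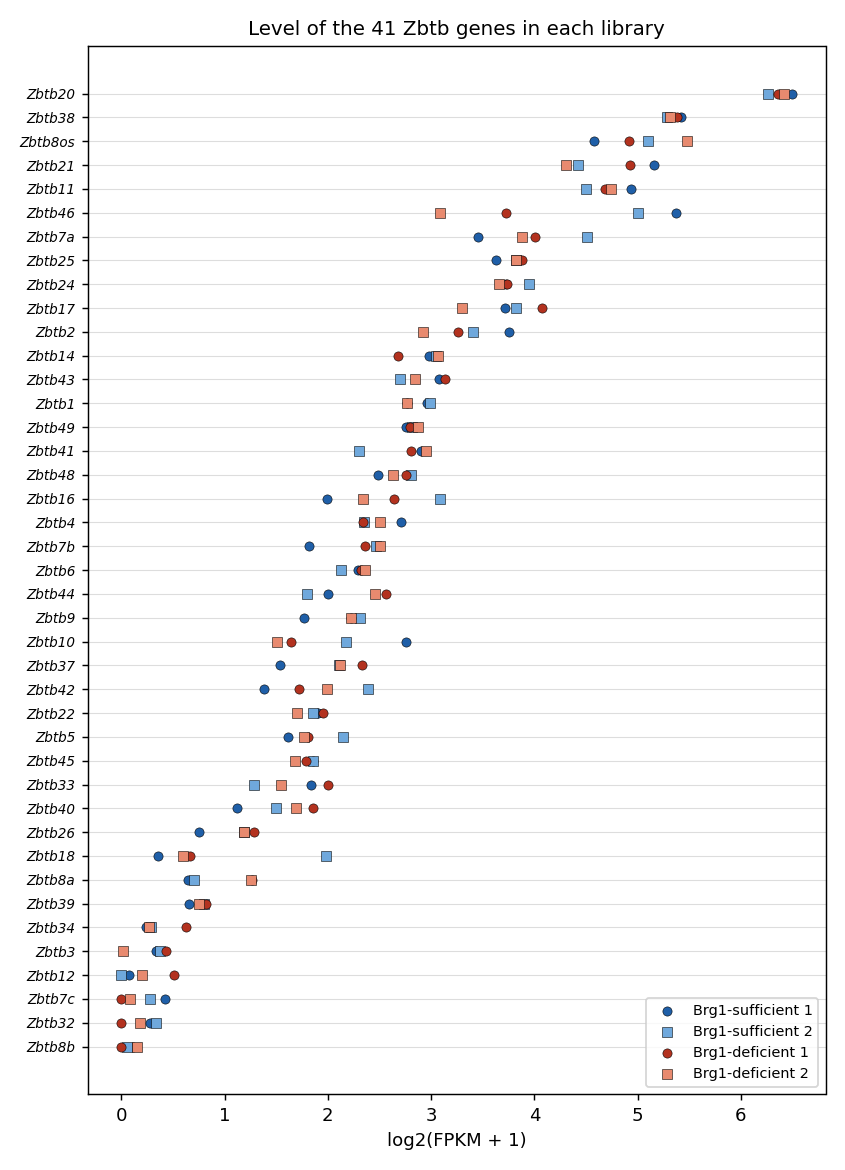
Level of each of the 41 Zbtb genes as log2(FPKM + 1) in the 2 Brg1-sufficient (blue) and 2 Brg1-deficient (red) libraries, ordered by mean level. Most genes have their 4 points close together or intermingled, and Zbtb46 has its Brg1-deficient points well to the left of its Brg1-sufficient points.

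Zbtb46 had the largest log2 difference between the groups among the 34 tested Zbtb genes. In Brg1-sufficient ILC3s it was at 40.44 and 31.11 FPKM, among the most expressed family members, and in Brg1-deficient ILC3s it was at 12.22 and 7.51 FPKM. The groups did not overlap, and the lowest control library was 2.55-fold above the highest Brg1-deficient library. The means were 35.8 ± 6.6 and 9.87 ± 3.33 FPKM (SD, n = 2 each), so that the Brg1-deficient mean was 27.6% of the control mean, or 3.63-fold lower. The log2 fold change on log2(FPKM + 1) was -1.78 (SE 0.269, 95% interval -2.46 to -1.11), with an unadjusted p = 0.000877 and an adjusted p = 0.0917 from limma. It therefore missed the threshold of 0.05 after adjustment over 14739 genes, among which its p ranked 140. The adjusted p depended on the fit. It was 0.0481 when only genes with a mean above 5 FPKM were tested, 0.00255 in a fit with a replicate block, 0.152 without the variance trend, and 0.219 with no filter on low values. Leaving out 1 library at a time gave log2 fold changes from -2.10 to -1.46 and adjusted p-values from 0.243 to 0.596.

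Zbtb10 and Zbtb44 were the other members with an unadjusted p under 0.05. Zbtb10, which binds a variant telomeric repeat, was at 5.78 and 3.51 FPKM in Brg1-sufficient libraries versus 2.13 and 1.84 FPKM in Brg1-deficient libraries. Its groups did not overlap, although the control libraries lay far apart. The means were 4.64 ± 1.61 and 1.98 ± 0.205 FPKM (SD, n = 2 each), with the Brg1-deficient mean at 42.7% of the control (log2 fold change -0.89, SE 0.292, 95% interval -1.63 to -0.16, limma unadjusted p = 0.0258, adjusted p = 0.316). Zbtb44 was at 3.01 and 2.48 FPKM in Brg1-sufficient and at 4.91 and 4.48 FPKM in Brg1-deficient libraries. Both Brg1-deficient libraries were above both controls, at 171% of the control mean (log2 fold change 0.61, SE 0.226, 95% interval 0.04 to 1.18, unadjusted p = 0.0404, adjusted p = 0.368). Neither passed after adjustment.

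These 3 genes lie on different chromosomes in GRCm38 (GENCODE M21 annotation). Zbtb46 spans chr2:181387762-181459426 on the minus strand, Zbtb10 chr3:9250602-9285333 on the plus strand and Zbtb44 chr9:31030644-31075885 on the plus strand. Zbtb46 overlaps a small nuclear RNA gene, Gm22708, and Zbtb44 an antisense gene, Gm29724. Gm22708 was listed at 0 and 4.17 FPKM in Brg1-sufficient libraries versus 0 in both Brg1-deficient ones, and Gm29724 at no more than 0.55 FPKM. Whether counting used the strand is not given in the sources used here. The longest GENCODE coding sequences encode 600 residues for Zbtb46, 861 for Zbtb10 and 616 for Zbtb44. In these, a classical finger was counted wherever cysteine, 2 to 4 residues, cysteine, 12 residues, histidine, 3 to 5 residues and histidine followed each other. Zbtb46 and Zbtb10 had 2 such fingers each and Zbtb44 had 4. The coding sequence of the first finger is shown for each, to show the DNA-binding unit shared by the 3 genes with the lowest p-values, with the codons of the zinc-binding cysteines and histidines in capitals. They encode residues 420 to 440 of Zbtb46, 716 to 736 of Zbtb10 and 401 to 421 of Zbtb44.
Zbtb46: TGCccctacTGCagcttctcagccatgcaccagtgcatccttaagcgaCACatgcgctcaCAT
Zbtb10: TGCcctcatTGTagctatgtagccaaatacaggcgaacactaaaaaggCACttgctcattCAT
Zbtb44: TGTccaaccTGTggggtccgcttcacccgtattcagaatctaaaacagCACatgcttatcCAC

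Across the family as a whole, differences were few. At an adjusted p under 0.05, 0 of 34 Zbtb genes were lower, where 0.224% of all tested genes were, and 0 were higher, where 0.0814% were. At an unadjusted p under 0.05, 2 of 34 (5.88%) were lower in Brg1-deficient cells, against 6.47% of all tested genes, and 1 of 34 (2.94%) was higher, against 6.12%. The study gave limits for a list of genes, with p and FDR from edgeR. They were p under 0.05, FDR under 0.4, a mean above 5 FPKM in either group and a log2 difference of means beyond 0.5. The same limits were applied here to p and adjusted p from limma, so the result need not match the study's list. On the lower side, 1 of 18 Zbtb genes (5.56%), Zbtb46, met them, against 6.65% of 8089 protein-coding genes. On the higher side, 0 of 18 did, against 5.7%. These shares were close to or below the background of all genes.

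The libraries of the groups did not overlap for 12 of the 34 genes. Zbtb46, Zbtb10, Zbtb2, Zbtb1 and Zbtb45 were lower in both Brg1-deficient libraries, 14.7% of the members against 20.2% of all tested genes. Zbtb44, Zbtb8a, Zbtb40, Zbtb37, Zbtb26, Zbtb25 and Zbtb6 were higher, 20.6% against 24.4%. Among these, Zbtb8a and Zbtb26 passed the filter only through the Brg1-deficient group, so their place in this count is partly set by it. The groups overlapped for the remaining 22. The median log2 fold change of the 34 was -0.01, beside 0.03 over all tested genes, with 18 below 0 and 16 above. Differences under 0.3 on the log2 scale were found for 25 members (73.5%), compared with 56.5% of all tested genes. The members were all protein-coding, as were 11069 of the 14739 tested genes, so these shares are not of like sets. The pseudocount also understates differences at low levels.

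**Figure D2:**
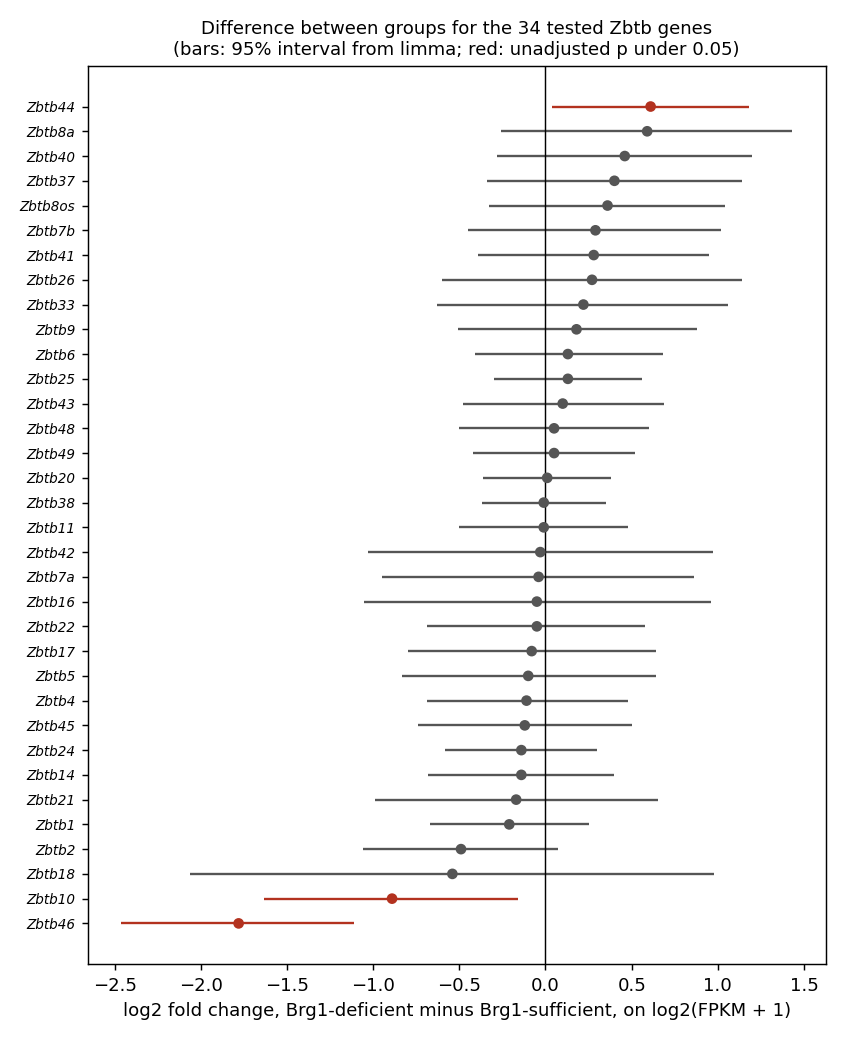
Log2 fold change of the 34 tested Zbtb genes, Brg1-deficient minus Brg1-sufficient, on log2(FPKM + 1), with 95% intervals from limma. Zbtb46 (-1.78), Zbtb10 (-0.89) and Zbtb44 (0.61), in red, have intervals that do not reach 0, and the other intervals include 0.

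The members with roles in lymphocytes did not pass the test in either direction. Zbtb16, the PLZF gene of innate lymphoid precursors, was at 2.97 and 7.5 FPKM in Brg1-sufficient and 5.23 and 4.07 FPKM in Brg1-deficient libraries. The Brg1-deficient values lay between the controls, and the interval of the log2 difference was wide, -1.05 to 0.96 around -0.05 (adjusted p = 0.973). Zbtb7b, the ThPOK gene, was at 2.53 and 4.54 FPKM against 4.14 and 4.67 FPKM. These groups overlapped too, with a log2 fold change of 0.29 (95% interval -0.45 to 1.02, adjusted p = 0.714). Its paralog Zbtb7a (LRF), which acts in B and T cell fate decisions and in red cell development, was at 9.97 and 21.85 FPKM against 15.07 and 13.7 FPKM. Here the control libraries spanned both Brg1-deficient values (log2 fold change -0.04, 95% interval -0.95 to 0.86, adjusted p = 0.973).

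Zbtb1, which lymphocyte development requires, was at 6.78 and 6.96 FPKM in Brg1-sufficient and 5.81 and 5.8 FPKM in Brg1-deficient libraries. Its replicates lay close together and the groups did not overlap, but the difference was small, with the Brg1-deficient mean at 84.5% of the control (log2 fold change -0.21, 95% interval -0.67 to 0.25, adjusted p = 0.671). Zbtb25 starts 664 bases from Zbtb1 on the opposite strand of chromosome 12. It was at 11.33 and 13.16 FPKM against 13.71 and 13.17 FPKM, on the higher side in Brg1-deficient libraries by a log2 fold change of 0.13 (adjusted p = 0.791). The neighbours thus differed in the direction of their means, neither past the test, and the difference between them was not tested. Zbtb17 (Miz-1), a partner of Myc, was at 12.11 and 13.11 FPKM against 15.83 and 8.82 FPKM. The Brg1-deficient libraries lay on both sides of the controls (log2 fold change -0.08, adjusted p = 0.927).

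Zbtb20, known from plasma cells and liver, was the most abundant member, at 89.23 and 75.9 FPKM in Brg1-sufficient and 81.39 and 84.47 FPKM in Brg1-deficient libraries. Its means were 82.6 ± 9.43 and 82.9 ± 2.18 FPKM (SD, n = 2 each), at the percentile 94.8 of protein-coding genes by level, and the interval of its log2 fold change was -0.36 to 0.38. The processed pseudogene BC002163, which overlaps it and whose reads may be split with its parent gene, was at 1.75 and 0 FPKM against 23.27 and 13.48 FPKM (log2 fold change 3.50, SE 0.538, adjusted p = 0.0925). This gene was named after its values were seen. Zbtb24, mutated in a syndrome of immunodeficiency with centromeric DNA hypomethylation, was at 12.27 and 14.46 FPKM against 12.34 and 11.65 FPKM (log2 fold change -0.14, adjusted p = 0.772). Its groups overlapped. Zbtb18 (RP58), known from the cerebral cortex, was at 0.28 and 2.96 FPKM in Brg1-sufficient libraries, which were 10.6-fold apart, and at 0.58 and 0.51 FPKM in Brg1-deficient libraries. Its log2 fold change of -0.54 (95% interval -2.06 to 0.98, adjusted p = 0.742) turned to 0.27 when the higher control library was left out.

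**Figure D3:**
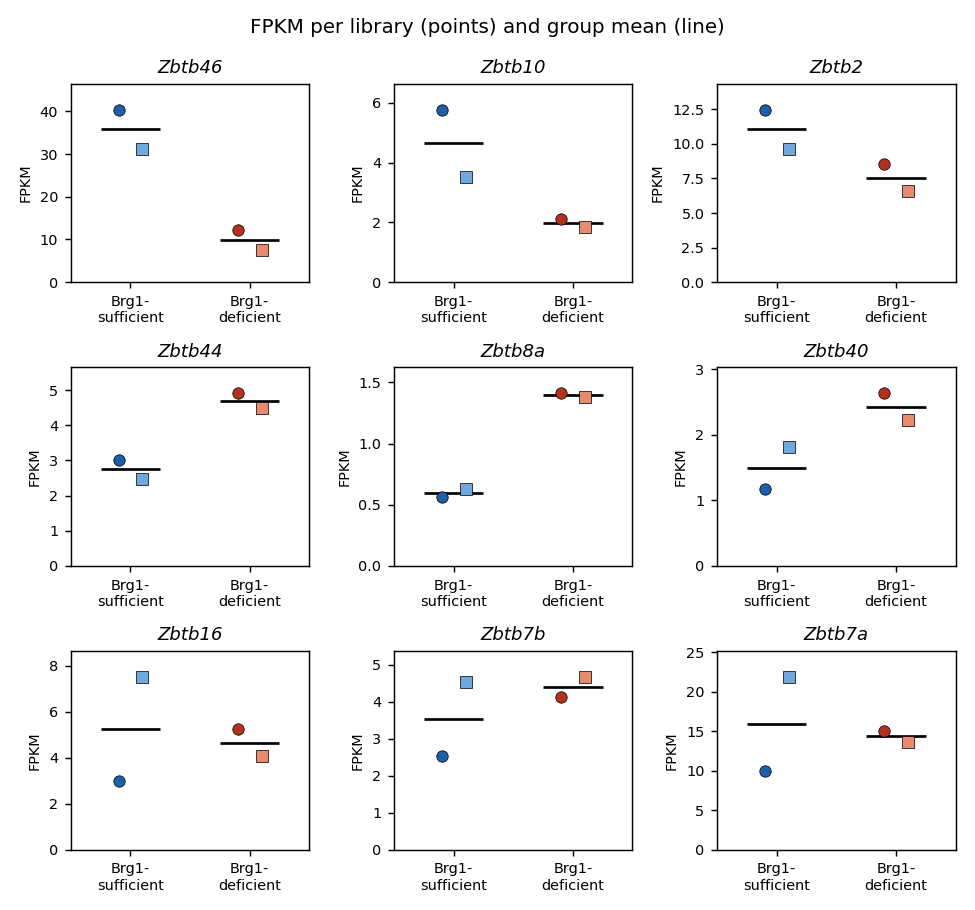
FPKM of 9 Zbtb genes in each library (points) with the group mean (line), on axes that start at 0. The groups separate for Zbtb46, Zbtb10, Zbtb2, Zbtb44, Zbtb8a and Zbtb40, while for Zbtb16, Zbtb7b and Zbtb7a the Brg1-sufficient libraries lie farther apart than the group means.

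The methyl-CpG binding members differed little. Zbtb38 was at 41.73 and 37.99 FPKM in Brg1-sufficient and 40.56 and 38.68 FPKM in Brg1-deficient libraries, with a log2 fold change of -0.01 and a narrow interval of -0.37 to 0.35. Zbtb33 (Kaiso) was at 2.56 and 1.44 FPKM against 3.01 and 1.92 FPKM, with a log2 fold change of 0.22. Zbtb4 was at 5.53 and 4.11 FPKM against 4.08 and 4.67 FPKM, with a log2 fold change of -0.11. The groups overlapped for all 3 genes.

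Of the other abundant members, Zbtb21 was at 34.63 and 20.38 FPKM in Brg1-sufficient and 29.48 and 18.8 FPKM in Brg1-deficient libraries, and Zbtb11 was at 29.55 and 21.69 FPKM against 24.71 and 25.68 FPKM. For both, the replicates within a group spanned the difference between the means (log2 fold changes -0.17 and -0.01). Zbtb8os, the archease gene, was at 22.88 and 33.32 FPKM against 29.2 and 43.54 FPKM (log2 fold change 0.36, adjusted p = 0.629). It overlaps Zbtb8a by 920 bases on the opposite strand.

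Among members not described so far, the 3 with the lowest and the 3 with the highest log2 fold changes did not pass the threshold. Zbtb2, which acts on the p53 pathway, was at 12.49 and 9.61 FPKM against 8.57 and 6.57 FPKM. Its groups did not overlap and the mean was 68.5% of the control (log2 fold change -0.49, SE 0.224, 95% interval -1.06 to 0.07, unadjusted p = 0.0761, adjusted p = 0.457). Zbtb14 was at 6.89 and 7.25 FPKM against 5.42 and 7.36 FPKM (log2 fold change -0.14), and Zbtb45 at 2.63 and 2.62 FPKM against 2.46 and 2.2 FPKM (log2 fold change -0.12). These differences were small, and the groups of Zbtb14 overlapped. Zbtb8a was at 0.56 and 0.63 FPKM against 1.41 and 1.38 FPKM. Its replicates were nearly equal and the mean was 234% of the control, but at this level the log2 fold change depended on the pseudocount, 0.59 with 1 (SE 0.335, adjusted p = 0.545) and 1.11 with 0.1. Zbtb40 was at 1.18 and 1.82 FPKM against 2.63 and 2.22 FPKM (log2 fold change 0.46, adjusted p = 0.592), and Zbtb37 at 1.91 and 3.32 FPKM against 4.04 and 3.35 FPKM (log2 fold change 0.40, adjusted p = 0.623). Zbtb37 overlaps Gas5, a gene at 496.8 to 790.89 FPKM, on the opposite strand.

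The spread between replicates differed by group. Between the Brg1-sufficient libraries, 13 of 34 members (38.2%, against 28.4% of all tested genes) differed by more than 0.5 on the log2 scale, 9 of them being higher in the second library, with Zbtb16, Zbtb7a, Zbtb7b and Zbtb18 in this group of 13. Between the Brg1-deficient libraries, 4 members did (11.8%, against 16.9%): Zbtb17, Zbtb46, Zbtb21 and Zbtb8os. The median absolute difference between replicates was 0.37 in Brg1-sufficient and 0.13 in Brg1-deficient libraries for the members, and 0.30 and 0.20 for all tested genes.

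The position and structure of the family varied widely. The 41 genes lay on 15 chromosomes, and 24 overlapped another annotated gene. Zbtb26 and Zbtb6 overlap by 10968 bases on the same strand, with starts 36 bases apart, so the split of reads between them is uncertain. Zbtb26 was at 0.68 and 1.27 FPKM against 1.43 and 1.28 FPKM, and Zbtb6 at 3.89 and 3.36 FPKM against 3.99 and 4.14 FPKM. Leaving out Zbtb8os, the members had 1 to 14 classical fingers (median 4), with 14 in Zbtb41, 13 in Zbtb17, 9 in Zbtb16 and 3 each in Zbtb7a and Zbtb7b, and their proteins had 420 to 1258 residues (median 608). Fingers with other spacings were not counted. RefSeq promoter windows (GRCm38.p6, 250 bases before to 50 after the start) were taken from all chromosomes except 18, which holds Zbtb7c. They were matched for 36 members. The median number of CpG dinucleotides was 25.5 in these windows and 7 in those of 27025 genes. Those 27025 were not limited to protein-coding genes, as the members were, so the 2 medians are not of like sets. The Zbtb46 window held 1 CpG, and its start lay 35038 bases inside the GENCODE gene.

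Zbtb46 was set beside marker genes of CCR6+ ILC3s and of dendritic cells, the cell types in which it is known. At an unadjusted p under 0.05, 4 of 7 CCR6+ ILC3 genes were lower and 1 was higher, with 0 passing after adjustment. Over all tested genes, 6.47% were lower and 6.12% higher at this limit. Ccr6, the chemokine receptor that names this subset, was at 185.82 and 203.32 FPKM against 92.86 and 105.78 FPKM (log2 fold change -0.96, adjusted p = 0.0901). Nrp1 was at 86.22 and 82.11 FPKM against 39.87 and 48.62 FPKM (log2 fold change -0.92, adjusted p = 0.105). In both, as in Zbtb46, the groups did not overlap. Ltb, which encodes lymphotoxin beta, differed by -0.79 on the log2 scale (adjusted p = 0.16), and Cd4 by -0.73 (adjusted p = 0.259). Tnfsf11, the RANKL gene, differed by 0.69 (adjusted p = 0.314). Both Tnfsf11 and Cxcr5 were higher in the Brg1-deficient libraries without overlap. Cxcr5 was at 63.08 and 65.82 FPKM against 85.92 and 77.72 FPKM (log2 fold change 0.34, limma adjusted p = 0.407). For Lta the groups overlapped (log2 fold change 0.05). The median of the 7 was -0.73, and their summed level was 1020 and 1040 FPKM in Brg1-sufficient and 709 and 765 FPKM in Brg1-deficient libraries. The log2 fold change of Zbtb46 (-1.78) was beyond that of Ccr6 in size, and whether these genes differ from each other was not tested, nor was the part of CCR6+ cell number in the Zbtb46 values.

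The dendritic cell and macrophage markers differed in both directions. Their 13 genes summed to 147 and 304 FPKM in Brg1-sufficient and 176 and 333 FPKM in Brg1-deficient libraries, and most of each sum came from Lyz2 (84.11 and 202.51 against 64.44 and 191.92 FPKM) and Batf3 (47.8 and 77.28 against 100.61 and 124.63 FPKM). Of the 13 genes, 7 were tested, with a median log2 fold change of -0.24, and 3 were below 1 FPKM in every library. Of the 7, 1 was lower (Adgre1) and 1 higher (Batf3) at an unadjusted p under 0.05. The shares over all tested genes at this limit were 6.47% lower and 6.12% higher. Adgre1, Itgam, Xcr1 and Flt3 were lower in both Brg1-deficient libraries without overlap, and Batf3 was higher without overlap. Flt3 did not pass the filter and was not tested. Groups without overlap were found for 20.2% of all tested genes on the lower side and 24.4% on the higher side. Among genes that define dendritic cells, Flt3 and Clec9a were near the floor, with Flt3 at 0.64 and 0.29 FPKM against 0.26 and 0.17 FPKM and Clec9a at 0.04 and 1.22 FPKM against 0.3 and 0.27 FPKM. Xcr1 was at 3.74 and 3.01 FPKM against 2.72 and 2.68 FPKM. The part of dendritic cells in the Zbtb46 values was not tested.

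**Figure D4:**
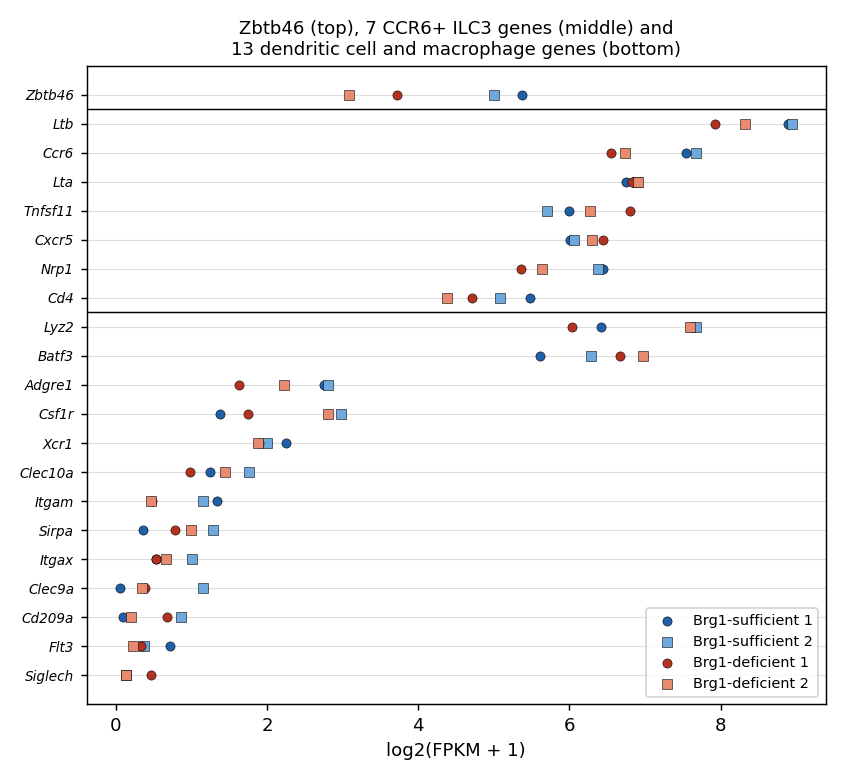
Level as log2(FPKM + 1) of Zbtb46 (top), 7 CCR6+ ILC3 genes (middle) and 13 dendritic cell and macrophage genes (bottom) in each library. Zbtb46, Ccr6, Nrp1, Ltb and Cd4 have both Brg1-deficient points (red) to the left of both Brg1-sufficient points (blue). Tnfsf11 and Cxcr5 have them to the right, and the points of Lta overlap. The dendritic cell genes Flt3 and Clec9a lie near 0.

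BTB zinc finger genes without the Zbtb name and the partners of BTB proteins were examined in the same fit. Of 8 such zinc finger genes, 7 were tested, with 2 lower and 1 higher at an unadjusted p under 0.05 and 0 after adjustment. Over all tested genes, 6.47% were lower and 6.12% higher at the unadjusted limit. Patz1, a regulator of T cell development, was at 11.92 and 8.33 FPKM against 4.86 and 5.81 FPKM (log2 fold change -0.80, SE 0.237, unadjusted p = 0.0178, adjusted p = 0.266). Bcl6, the repressor of germinal center B cells and follicular helper T cells, was at 5.29 and 6.01 FPKM against 2.53 and 3.59 FPKM (log2 fold change -0.72, SE 0.241, unadjusted p = 0.0273, adjusted p = 0.325). In both genes the groups did not overlap. Mynn was at 53.53 and 49.98 FPKM against 70.9 and 68.2 FPKM, higher in both Brg1-deficient libraries (log2 fold change 0.42, SE 0.135, unadjusted p = 0.0241, adjusted p = 0.307).

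Of 16 genes for co-repressors and ubiquitin ligase partners, all tested, 2 were lower and 0 higher at an unadjusted p under 0.05, with 0 in either direction after adjustment. Their median log2 fold change was -0.01. The unadjusted shares over all tested genes were 6.47% lower and 6.12% higher. Hdac4, a class II histone deacetylase, was at 17.17 and 13.68 FPKM against 9.75 and 9.22 FPKM (log2 fold change -0.64, SE 0.187, unadjusted p = 0.0166, adjusted p = 0.26). The groups of Hdac4 did not overlap.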

How the data were processed

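The deposited values were FPKM per gene in 4 libraries, 2 per genotype, which the authors had obtained by alignment in STAR (version 2.5, GRCm38) and quantification in RSEM (version 1.2, GENCODE M16). The sorted deposited values were nearly identical between libraries: 99.29% of the ranks above 1 FPKM were within 1%, as quantile normalization gives, so a difference in total RNA would not be seen. The sequencing depth is unknown, and no counting interval was computed. The libraries held 30046 to 36929 genes above 0.

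Genes with a mean above 1 FPKM in either group (14739, of which 11069 were protein-coding) were tested with limma 3.58.1 in R 4.3.3 (lmFit, and eBayes with a variance trend) on log2(FPKM + 1), and p-values were adjusted by Benjamini-Hochberg over all of them. The pseudocount understates the fold change of low genes. A count test had been planned for counts; since the file held FPKM, limma was used. For 1 gene, exact two-sided permutation of 2 libraries against 2 gives no p below 0.333. The script was tested on simulated data.

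The named genes were the Zbtb genes with an unadjusted p under 0.05, those in a list of lymphocyte, blood and methyl-CpG roles, the 5 most abundant, and, among tested Zbtb genes not already named by these, the 3 with the lowest and the 3 with the highest log2 fold change. From the partner lists, genes with an unadjusted p under 0.05 were named, except 1 that is not reported here. Other genes were named as overlapping genes or markers. The members and the lists were chosen with earlier results of these data known. Positions, overlaps and coding sequences came from GENCODE M21 on GRCm38, and promoter windows from RefSeq. Libraries were grouped by donor genotype. The replicate numbers in the labels are not said to pair the libraries. The alternatives were a pseudocount of 0.1, no filter, a mean above 5 FPKM, no variance trend, the replicate number as a block, quantile normalization, and leaving out each library.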

Additional observations from a re-analysis of the deposited data

How the results depend on the processing

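Of the 29 named genes, 17 kept the sign of their difference under every alternative run, and 12 Zbtb genes reversed when 1 library was left out, where the remaining library of that group was assumed to vary like the other group. The log2 fold changes then ranged from -0.60 to 0.50 for Zbtb16, -0.04 to 0.61 for Zbtb7b, -0.57 to 0.49 for Zbtb7a, -0.47 to 0.31 for Zbtb17, -0.10 to 0.13 for Zbtb20, -1.36 to 0.27 for Zbtb18, -0.06 to 0.49 for Zbtb33, -0.28 to 0.07 for Zbtb4, -0.07 to 0.06 for Zbtb38, -0.54 to 0.20 for Zbtb21, -0.22 to 0.21 for Zbtb11 and -0.33 to 0.05 for Zbtb14. The cause of these reversals was not tested.

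With a mean above 5 FPKM required, 1 Zbtb gene (Zbtb46) was lower at an adjusted p under 0.05. The unadjusted counts were 1 lower and 0 higher, since fewer genes were tested. Over all 9095 genes of that fit they were 679 and 635. With the replicate block the counts were 1 lower after adjustment and 2 lower by the study's limits (Zbtb46 and Zbtb2). Unadjusted, 3 of 34 were lower and 0 higher, where 1066 and 989 of all 14739 tested genes were. The replicate numbers are not stated to mark a pairing, and the deviations of same-numbered libraries had a correlation of -0.000386 across genes. Without the trend, 2 were higher unadjusted (Zbtb44 and Zbtb8a). Leaving out each library gave 0 to 2 lower by the study's limits (2, Zbtb46 and Zbtb10, without the second Brg1-sufficient library, and 0 without any other), and 1 to 3 lower and 0 to 1 higher unadjusted (Zbtb46 alone without either Brg1-deficient library). Among the BTB zinc finger genes without the Zbtb name and the partner genes together (4 lower and 1 higher unadjusted in the fit reported), 2 were higher unadjusted with a pseudocount of 0.1 and with no filter, and leaving out each library gave 0 to 4 lower and 0 to 3 higher.

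Over all genes, 33 lower and 12 higher after adjustment in limma became 0 and 0 with no filter (1400 and 1308 by p under 0.05 before adjustment), 73 and 41 with a mean above 5 FPKM, 0 and 0 without the trend (965 and 903 unadjusted), 248 and 150 with the replicate block, and 0 and 0 without any 1 library (509 to 1331 and 521 to 1489 unadjusted). The cause was not tested.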
